A study of Homo sapiens with 6 samples.

Results

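Of the 54261 gene symbols counted, 44 encode collagen chains, from COL1A1 to COL28A1. They were taken as every symbol made of COL, a number, A and a number, which leaves out pseudogenes and antisense transcripts, and they fall into 11 fibrillar chains, 6 chains of type IV (the basement membrane collagen) and 27 chains of other types. RNA was sequenced from 786-O, a human cell line grown from a clear cell kidney tumour, which has no working VHL. Cells transfected for CRISPR-Cas9 editing with Ctrl-sgRNA (genotype PHF8 wildtype) gave 3 control libraries, and cells transfected with PHF8-sgRNA (genotype PHF8 knockout) gave 3 knockout libraries, and both were kept in medium with serum. PHF8 encodes a histone demethylase, and the comparison asks which collagen transcripts differ in its absence. Whether the edited cells were 1 clone or a pool, and whether the 3 libraries of each kind were grown apart, is not stated in the labels. The p-values therefore reflect only how these libraries vary, which could be technical variation.

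Collagens are secreted or membrane proteins built from α chains that wind around each other in a helix with glycine at every turn. Fibrillar collagens form the cables of connective tissue, type IV forms the sheet under epithelia and around kidney tubules, and type VI forms beaded filaments that join cells to the surrounding matrix. Types XV and XVIII sit in the basement membrane zone, type VII anchors the basement membrane to the tissue beneath, FACIT collagens decorate fibrils, and transmembrane collagens stay on the cell surface. The chains of a type are made by separate genes, and several assemble only with each other.

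COL4A1 and COL4A2 lie head to head on chromosome 13, and only 126 bases separate their RefSeq start sites (GRCh38.p14). That stretch, chr13:110307158-110307283, is shown on the plus strand, reading towards COL4A2, because both main type IV genes start at its ends. The 250 bases before the starts of COL7A1 (chr3:48595330-48595579, minus strand) and COL6A2 (chr21:46097862-46098111, plus strand) are shown because these were the abundant chains with the largest rises. Capitals mark the motifs searched on both strands: the GC box GGGCGG, the CCAAT box CCAAT, the TATA box TATAAA and the AP-1 site TGANTCA.
COL4A1 to COL4A2: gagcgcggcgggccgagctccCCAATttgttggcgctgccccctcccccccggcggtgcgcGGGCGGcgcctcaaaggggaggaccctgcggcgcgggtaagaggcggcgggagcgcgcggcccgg
COL7A1: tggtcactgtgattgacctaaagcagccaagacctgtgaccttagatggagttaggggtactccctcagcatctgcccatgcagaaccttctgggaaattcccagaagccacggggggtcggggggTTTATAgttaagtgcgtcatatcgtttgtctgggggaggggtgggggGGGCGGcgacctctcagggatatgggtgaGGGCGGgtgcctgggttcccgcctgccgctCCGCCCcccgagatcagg
COL6A2: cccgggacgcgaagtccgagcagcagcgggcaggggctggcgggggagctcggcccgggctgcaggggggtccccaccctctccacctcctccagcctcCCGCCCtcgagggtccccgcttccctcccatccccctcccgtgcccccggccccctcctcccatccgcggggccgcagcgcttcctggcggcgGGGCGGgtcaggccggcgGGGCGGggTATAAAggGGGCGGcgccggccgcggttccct
The COL7A1 window holds 3 GC boxes and 1 TATA box, and the COL6A2 window holds 4 and 1. The type IV stretch holds 1 GC box and 1 CCAAT box and no TATA box. RefSeq windows of 250 bases were matched for 32 of the 44 members, and 18 hold a GC box, 9 a CCAAT box, 5 a TATA box and 0 an AP-1 site. Among all 27305 such windows the shares are 42.3%, 33.0%, 11.1% and 6.60%, against 56.3%, 28.1%, 15.6% and 0% here. Among the 9999 windows of tested genes 67.1% hold a GC box, as do 10 of the 14 of tested collagens. A match is a run of letters and no evidence of binding.

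Libraries held 21533615 to 29095133 counted reads. PHF8 had 36.5, 35.0 and 32.9 CPM (read counts scaled to library size with TMM factors) in control libraries 1 to 3 and 10.8, 6.73 and 12.8 CPM in knockout libraries 1 to 3, a log2 fold change of -1.78 (SE 0.21; edgeR adjusted p = 1.19e-04). Knockout library 2 stood apart from the other two on the second principal component, at -34.0 against 19.6 and 19.7. It was the lowest knockout library for 42.2% of all tested genes and for 16 of the 20 tested collagens, and what lies behind this was not tested. Of 12 markers of renal carcinoma epithelium all had reads, PAX8 at 223 CPM and KRT8 at 570 CPM in control cells, with a summed level of 1777 to 1857 CPM in control and 2163 to 2308 CPM in knockout libraries. Of 10 fibroblast markers 4 were tested: FBLN1 (log2 fold change 2.17, edgeR adjusted p = 0.00275) and PDPN (0.62, adjusted p = 9.61e-04) rose, LUM fell (-2.61, adjusted p = 0.00182) and THY1 did not pass. DCN, FAP, TCF21, POSTN and PDGFRA had at most 4 reads in any library and DPT had 0. Their summed level, 42.9 to 49.4 CPM in control and 63.7 to 75.2 CPM in knockout libraries, was mostly PDPN. Endothelial CDH5 and EMCN, smooth muscle MYH11, leukocyte PTPRC, CD3E, CD163 and LYZ, and cartilage COMP, HAPLN1, EPYC and chondromodulin (LECT1) had 0 reads. The summed levels of these lists were 4.93 to 6.12 CPM in control and 4.16 to 6.68 CPM in knockout libraries for 8 endothelial markers, 8.46 to 9.88 and 7.86 to 10.4 CPM for 8 smooth muscle and pericyte markers, 8.59 to 9.80 and 10.1 to 14.0 CPM for 7 leukocyte markers, and 24.9 to 28.3 and 18.2 to 18.3 CPM for 8 cartilage markers. Among their tested members TEK (1.06, edgeR adjusted p = 0.00663), KDR (1.04, adjusted p = 0.0478) and ACTA2 (0.97, adjusted p = 0.00244) rose on the log2 scale. PDGFRB (-1.96, adjusted p = 2.14e-04), MATN3 (-1.23, adjusted p = 1.45e-04) and SOX9 (-0.32, adjusted p = 0.0382) fell. CSF1R, with 185 to 321 reads per library, was nearly all of the leukocyte sum and did not pass (0.35, adjusted p = 0.104). Their part in the collagen results was not tested.

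Collagen transcripts took a larger share of the reads in knockout cells. The 44 genes together held 0.345%, 0.328% and 0.333% of counted reads in control libraries 1, 2 and 3 and 0.628%, 0.376% and 0.540% in knockout libraries 1, 2 and 3. Every knockout library lay above every control library, but library 2 only by a small margin. The summed level was 3166 ± 82.8 CPM in control and 5467 ± 1412 CPM in knockout cells (SD, n = 3 each), a ratio of 1.73 (exact two-sided permutation p = 0.1, the smallest that 3 against 3 libraries allow). Without knockout library 2 the log2 ratio was 0.98 in place of 0.79. By class, chains of other types summed to 2847 ± 80.4 CPM in control and 5057 ± 1315 CPM in knockout cells, without overlap (exact permutation p = 0.1). Type IV chains summed to 276 ± 4.08 and 377 ± 90.8 CPM (exact permutation p = 0.3). Fibrillar chains summed to 43.0 ± 4.25 and 32.4 ± 7.71 CPM (exact permutation p = 0.2). The groups overlapped for type IV and for fibrillar chains (SD, n = 3 each). The share of counted reads, which uses no TMM factors, had a ratio of 1.53. Neither the number of cells nor RNA per cell was measured, so these values give collagen RNA relative to other counted RNA, not per cell.

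The makeup of these reads differed as well. The 7 most read genes, COL6A3, COL7A1, COL6A2, COL18A1, COL6A1, COL4A2 and COL4A1, held 95.5% to 96.1% of collagen reads in control and 97.8% to 98.2% in knockout libraries. COL7A1 rose from 12.6 ± 0.667% to 22.9 ± 1.72% of collagen reads and COL6A2 from 9.22 ± 0.245% to 12.6 ± 2.25% (SD, n = 3 each; exact permutation p = 0.1 for both). COL6A3 held 51.0 ± 0.852% in control and 42.8 ± 5.33% in knockout libraries, again without overlap (exact permutation p = 0.1). COL18A1 kept a share of 7.67 ± 0.213% and 7.34 ± 0.804%, which overlapped (exact permutation p = 0.5). Shares add to a whole, so these are not separate results.

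**Figure D1:**
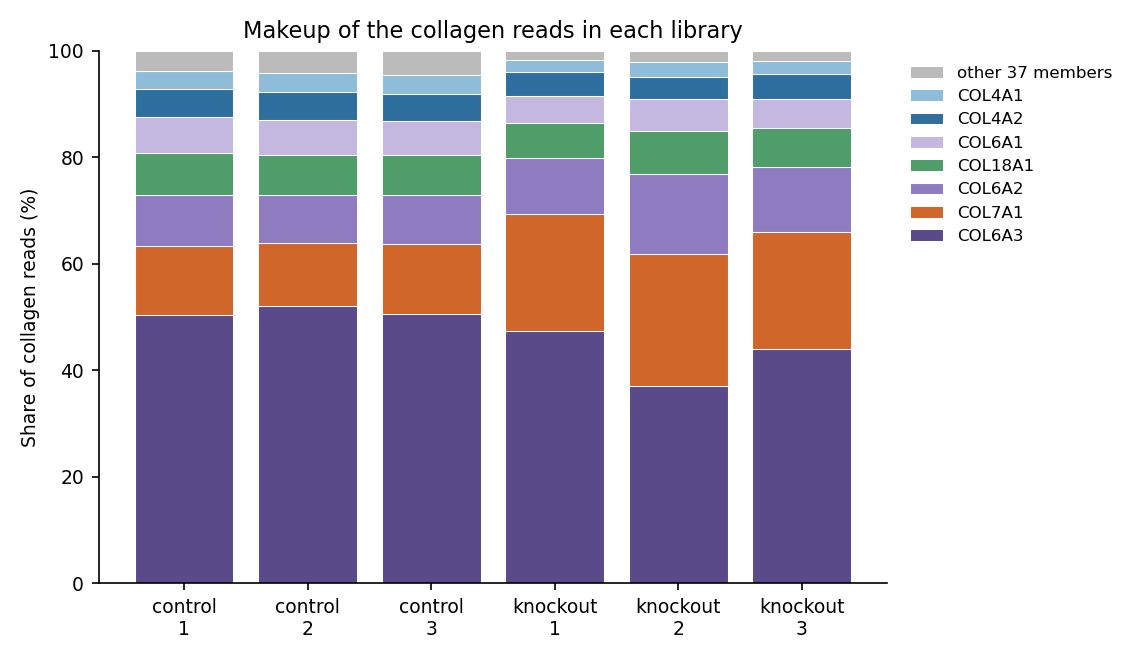
Share of all collagen reads (percent, vertical axis) held by the 7 most read collagen genes and by the other 37 members together, in each of the 3 control and 3 knockout libraries. COL7A1 took 11.9% to 13.1% in control libraries and 21.8% to 24.9% in knockout libraries.

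Of the 44 genes, 20 passed edgeR's filter on low counts and were tested. In this group 10 rose and 3 fell in knockout cells at an adjusted p under 0.05, and 7 did not pass, so 65.0% passed against a background of 59.7% of all 14398 tested genes (28.9% higher and 30.8% lower; with library totals only, 3153 genes were higher and 5441 lower, and 8 and 4 collagens). Past 2-fold as well, 6 of the 20 rose (COL7A1, COL6A2, COL14A1, COL20A1, COL15A1 and COL9A2) and 2 fell (COL12A1 and COL5A2). The background past 2-fold was 9.2% higher and 14.2% lower. The groups did not overlap in 9 collagens with knockout higher and 3 with knockout lower (of all tested genes 66.8% did not overlap, 32.6% with knockout higher and 34.2% lower). COL20A1, COL15A1 and COL9A2 passed the filter only through the knockout libraries and COL5A2 and COL1A1 only through the control libraries. In the 15 that reached its level (0.395 CPM) in every library 7 rose, 2 fell and 6 did not pass. Past 2-fold, only COL7A1, COL6A2 and COL14A1 of these 15 rose and only COL12A1 fell. By class, 9 of 14 tested chains of other types rose and 2 fell, 1 of 3 type IV chains rose, and 1 of 3 fibrillar chains fell. The median log2 fold change of the 20 was 0.53, beside -0.01 for all tested genes. Of the 13 calls, 9 kept their direction and side of the threshold in every alternative without a fold criterion that gave a value. These were COL7A1, COL6A2, COL18A1, COL16A1, COL14A1, COL15A1, COL20A1, COL12A1 and COL5A2, of which COL18A1 and COL16A1 were short of 2-fold.

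**Figure D2:**
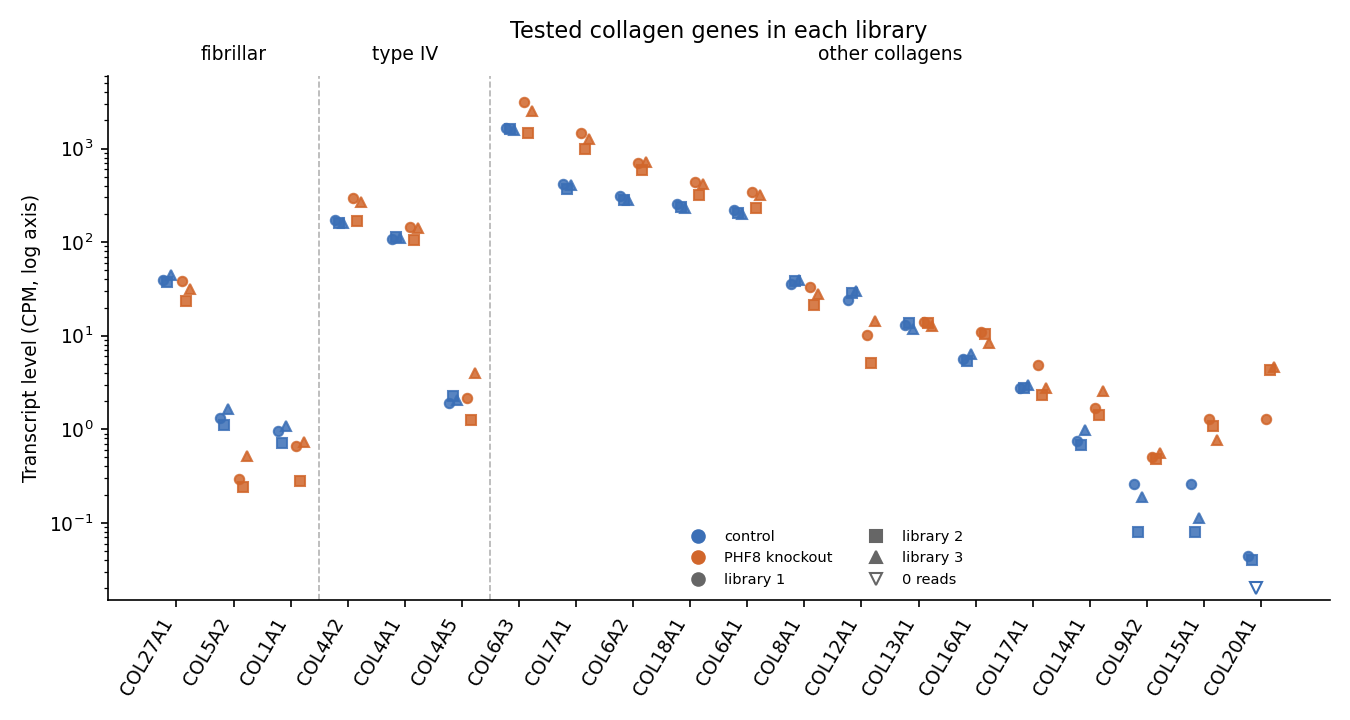
Level of the 20 tested collagens in each library (CPM, log axis), with control libraries in blue and knockout libraries in orange and the marker shape giving the library number; the open triangle is a library with 0 reads, drawn at the foot of the axis. Levels span from COL20A1, at 0.03 CPM on average in control cells, to COL6A3 at 1614 CPM, and knockout library 2 (orange squares) is often the lowest of its group.

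**Figure D3:**
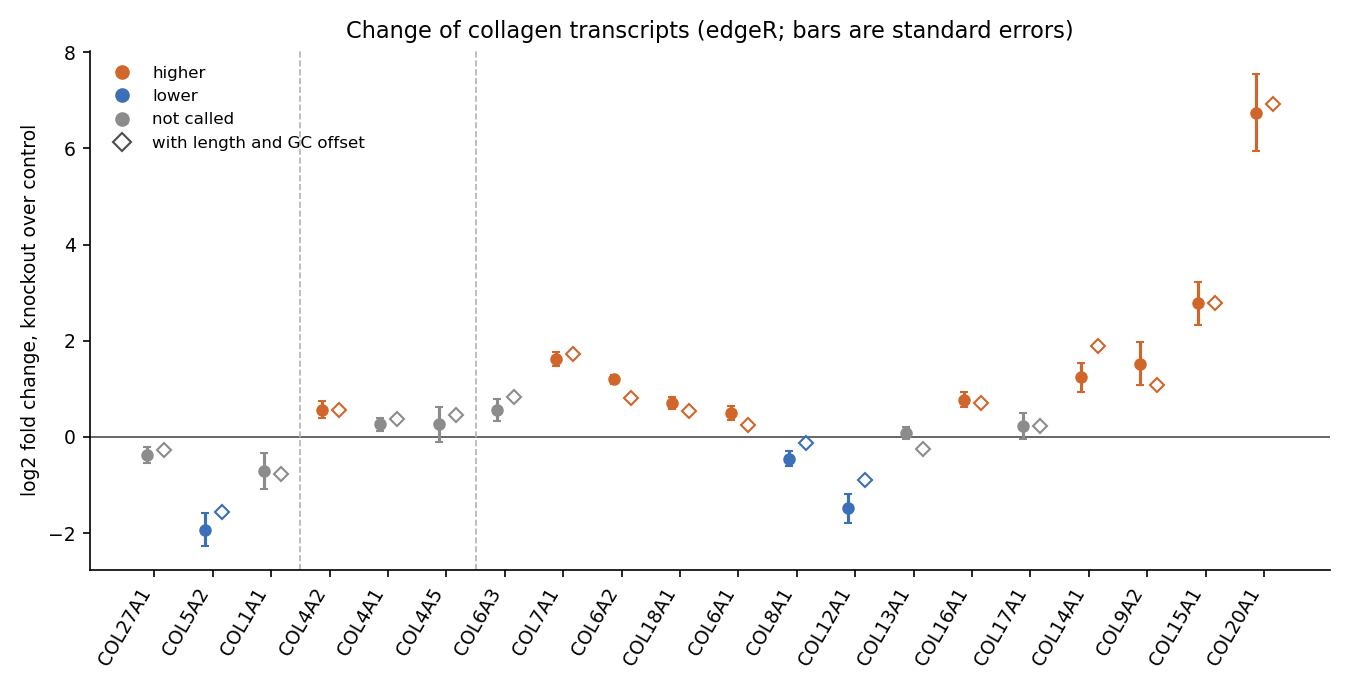
log2 fold change of the 20 tested collagens, knockout over control, with standard errors (filled circles, colour by call) and the same value once offset for length and GC content of the transcript (open diamonds, no error drawn). COL7A1 stayed near its value, 1.63 and 1.73, while COL8A1 moved from -0.46 to -0.13.

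Fibrillar chains were scarce in these cells. Of 11, only COL27A1, COL5A2 and COL1A1 were tested, and of these 1 fell and 2 did not pass. COL5A2 and COL1A1 passed the filter only through the control libraries, so these calls give no direction for the class. The 8 others had too few reads to be tested. COL5A2, a chain of the type V collagen found inside type I fibrils (chromosome 2, 189031898 to 189225312, GRCh38), had 1.32, 1.12 and 1.64 CPM in control libraries and 0.29, 0.24 and 0.51 CPM in knockout libraries 1, 2 and 3. The groups were well apart, though they rest on 102 and 27 reads in all. COL5A2 fell 3.82-fold (log2 fold change -1.93, SE 0.34; edgeR adjusted p = 1.16e-03). COL5A1, the chain that type V needs beside it, had 3 reads in the control and 4 in the knockout group.

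COL27A1 encodes the type XXVII chain, a fibrillar collagen mostly known from cartilage, and was the only fibrillar chain above 5 CPM (chromosome 9, 114155537 to 114312511). It had 39.3, 37.7 and 45.0 CPM in control and 38.4, 23.8 and 31.9 CPM in knockout libraries. The groups overlapped through knockout library 1. Its log2 fold change was -0.38 (SE 0.17), short of the threshold (edgeR adjusted p = 0.0823). It passed as lower in 5 alternatives, among them scaling by library totals (-0.55, adjusted p = 0.0186) and leaving out knockout library 1 (-0.55, adjusted p = 0.0207). Offset for length and GC content, it passed too, at -0.28 (adjusted p = 0.0410).

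COL1A1 and COL1A2 make type I collagen, the main protein of scar and bone. COL1A1 (chromosome 17, 50184101 to 50201632) had 22, 18 and 29 reads in control and 16, 7 and 20 in knockout libraries, and the groups overlapped (log2 fold change -0.71, SE 0.37; edgeR adjusted p = 0.127). COL1A2 had 1 read in 1 knockout library and 0 elsewhere, so at this depth no partner chain of COL1A1 was seen beyond that read. COL3A1, COL2A1 and COL5A3 had 0 reads in each library, and COL11A1, COL11A2 and COL24A1 at most 2 in any library.

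All 6 type IV genes had reads, but COL4A1 and COL4A2, which form the collagen of nearly all basement membranes, held nearly all of them. COL4A2 (chromosome 13, 110305812 to 110513209) had 171, 161 and 160 CPM in control libraries and 297, 167 and 266 CPM in knockout libraries 1, 2 and 3. Knockout library 2 lay within the control range and the other two well above it. COL4A2 rose 1.48-fold (log2 fold change 0.57, SE 0.18; edgeR adjusted p = 0.0233), a call lost with library totals only (0.40, adjusted p = 0.0801) and on leaving out control library 2 or 3 or knockout library 1 or 3 (adjusted p = 0.0525, 0.0616, 0.0856 and 0.0716). Its adjusted p ranged from 1.68e-05 to 0.0856 across the alternatives. Without knockout library 2 its log2 fold change was 0.78.

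COL4A1 (chromosome 13, 110148963 to 110307157) had 107, 112 and 110 CPM in control and 147, 106 and 142 CPM in knockout libraries. Here knockout library 2 lay below every control library. Its log2 fold change of 0.26 (SE 0.13) did not pass (edgeR adjusted p = 0.109). It passed as higher without knockout library 2 (0.40, adjusted p = 3.96e-04) and when offset for length and GC content (0.38, adjusted p = 5.68e-04). Reads of COL4A2 per read of COL4A1 were 1.59, 1.44 and 1.46 in control and 2.03, 1.59 and 1.87 in knockout libraries, a ratio that no scaling of the libraries can change. The log2 ratio was higher by 0.28 in knockout cells, with library 2 inside the control range (exact permutation p = 0.2, and 0.3 adjusted over 3 chain ratios). With the length and GC offset, which the ratio does not use, the log2 fold change was 0.57 for COL4A2 and 0.38 for COL4A1. As annotated in GENCODE v44 the genes overlap at their starts on opposite strands, and the strand setting of the counting is not given. Per kilobase of transcript, the COL4A1 level was 16.8 ± 0.369 and the COL4A2 level 25.5 ± 0.903 CPM in control cells (SD, n = 3 each).

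The remaining type IV chains, which replace α1 and α2 in some kidney membranes, were low. COL4A5 (chromosome X, 108439838 to 108697545) had 1.93, 2.28 and 2.05 CPM in control and 2.16, 1.25 and 4.04 CPM in knockout libraries, which spread to both sides of the control range (log2 fold change 0.26, SE 0.37; edgeR adjusted p = 0.567; between -0.29 and 0.58 over the alternatives). COL4A6, whose RefSeq start lies 379 bases from that of COL4A5 on the other strand, had no control reads and 1, 0 and 6 reads in the knockout libraries. COL4A3 had 1 read in the control and 4 in the knockout group. COL4A4 had 0 reads in each control library and 2 in each knockout library. These 3 genes were not tested, and without the filter none of them passed (edgeR adjusted p = 0.504, 0.0885 and 0.0691 for COL4A3, COL4A4 and COL4A6).

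Type VI collagen, assembled from α1, α2 and α3 chains, was the most abundant collagen of these cells, and its α2 transcript rose more than its α1 transcript. COL6A3 (chromosome 2, 237324003 to 237414328) was the 41st most abundant of all genes by CPM in control cells. It had 1645, 1621 and 1576 CPM in control libraries and 3176, 1451 and 2543 CPM in knockout libraries 1, 2 and 3. Libraries 1 and 3 lay far above the controls and library 2 below all of them. The log2 fold change was 0.57 (SE 0.23) and missed the threshold (edgeR adjusted p = 0.0568). It passed as higher in 6 alternatives, without knockout library 2 (0.83, adjusted p = 5.30e-05), with DESeq2 (0.56, adjusted p = 0.0260), median-ratio factors (adjusted p = 0.0498), no filter (adjusted p = 5.52e-05), the replicate block (adjusted p = 0.0423) and an offset for length and GC (0.82, adjusted p = 5.10e-05). In the other alternatives its adjusted p reached 0.222.

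COL6A2 (chromosome 21, 46098112 to 46132848) had 310, 281 and 285 CPM in control and 703, 588 and 713 CPM in knockout libraries. All 3 knockout libraries stood far above the controls, library 2 included. COL6A2 rose 2.29-fold (log2 fold change 1.19, SE 0.10; edgeR adjusted p = 3.26e-05), though by 0.82 on the log2 scale when offset for length and GC content (adjusted p = 4.99e-06).

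COL6A1, 93061 bases upstream of COL6A2 on the same strand (chromosome 21, 45981770 to 46005050), had 223, 205 and 201 CPM in control and 342, 229 and 318 CPM in knockout libraries. The groups did not overlap, although knockout library 2 was close to control library 1. COL6A1 rose 1.41-fold (log2 fold change 0.50, SE 0.14; edgeR adjusted p = 0.0138), a call lost when only library totals were used (0.33, adjusted p = 0.0653) and on leaving out knockout library 1 (0.39, adjusted p = 0.0509). Its adjusted p ranged from 3.86e-05 to 0.0653 across the alternatives, and offset for length and GC content its log2 fold change was 0.25 (adjusted p = 0.0141).

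Reads of COL6A2 per read of COL6A1 were 1.39, 1.37 and 1.42 in control and 2.06, 2.56 and 2.24 in knockout libraries, with no overlap. The log2 ratio was 0.71 higher in knockout cells (exact permutation p = 0.1, the smallest possible; 0.3 adjusted over 3 chain ratios). The ratio of COL6A3 to COL6A1 went to both sides, with 7.38, 7.91 and 7.83 reads per read in control and 9.30, 6.32 and 7.99 in knockout libraries (log2 difference 0.013, exact permutation p = 0.8; 0.8 adjusted). Per kilobase of transcript, COL6A1, COL6A2 and COL6A3 had levels of 49.9 ± 2.77, 84.8 ± 4.45 and 153 ± 3.35 CPM in control and 70.5 ± 14.1, 194 ± 20.2 and 227 ± 82.9 CPM in knockout cells (SD, n = 3 each). None of these ratios or levels used the length and GC offset. Offset for both, COL6A2 and COL6A3 each had a log2 fold change of 0.82, beside 0.25 for COL6A1. So with the offset COL6A3 also rose more than COL6A1. The alternative type VI chains COL6A5 and COL6A6 had at most 2 reads and 0 reads in any library.

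**Figure D4:**
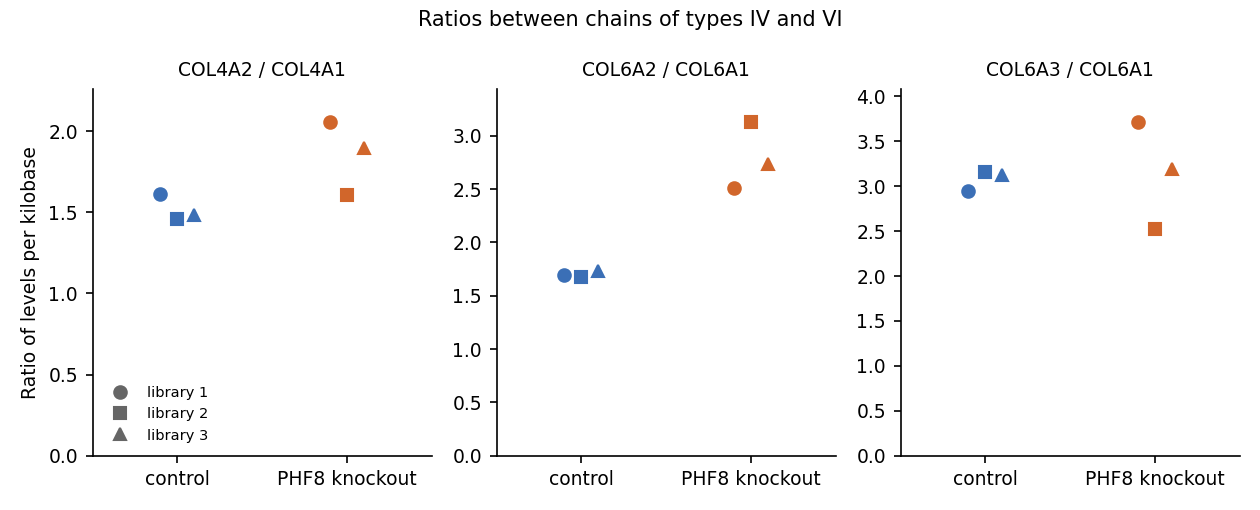
Ratios between chains of the same collagen type in each library, as levels per kilobase of transcript (vertical axes start at 0), for control (blue) and knockout (orange) libraries with the shape giving the library number. COL6A2 over COL6A1 separates the groups, at 1.67 to 1.73 against 2.51 to 3.13, while COL6A3 over COL6A1 does not. The ratios are without the length and GC offset.

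Type VII had the largest rise among the abundant collagens. COL7A1 encodes the only chain of the anchoring fibrils that hold epithelium to the tissue beneath (chromosome 3, 48564073 to 48595329). It had 422, 371 and 409 CPM in control libraries and 1475, 978 and 1261 CPM in knockout libraries 1, 2 and 3. Each knockout library held from 244% to 368% of the control mean. COL7A1 rose 3.09-fold (log2 fold change 1.63, SE 0.14; edgeR adjusted p = 3.66e-05), with 1.46 to 1.78 on the log2 scale over all alternatives. It went from the 331st to the 80th most abundant gene by CPM, and per kilobase its level of 43.4 ± 2.88 CPM in control cells became 134 ± 27.0 CPM (SD, n = 3 each).

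The type XVIII and XV genes, whose proteins carry heparan or chondroitin sulphate and release antiangiogenic fragments, also rose. COL18A1 (chromosome 21, 45405165 to 45513720) had 258, 236 and 234 CPM in control and 443, 322 and 417 CPM in knockout libraries, without overlap. It rose 1.62-fold (log2 fold change 0.70, SE 0.12; edgeR adjusted p = 1.21e-03). This gene overlaps SLC19A1 on the other strand, and the strand setting of the counting is not given. SLC19A1 had a log2 fold change of 0.17 (edgeR adjusted p = 0.181). COL15A1 (chromosome 9, 98943179 to 99070792) had 6, 2 and 3 control reads and 31, 27 and 21 knockout reads in libraries 1 to 3. Counts were low but every knockout library exceeded every control library, and COL15A1 rose 6.86-fold (log2 fold change 2.78, SE 0.45; edgeR adjusted p = 6.75e-04). Without control library 1, which held 6 of its 11 control reads, the log2 fold change was 3.397.

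FACIT collagens, which attach to the surface of fibrils, moved in both directions. COL12A1, of fibrils in tendon and stressed tissue (chromosome 6, 75084326 to 75206267), had 24.0, 28.6 and 29.8 CPM in control and 10.1, 5.08 and 14.3 CPM in knockout libraries. The groups were apart, and library 2 held 18.5% of the control mean where library 3 held 52.1%. COL12A1 fell 2.79-fold (log2 fold change -1.48, SE 0.30; edgeR adjusted p = 2.42e-03). Without knockout library 2 its log2 fold change was -1.17. Offset for length and GC content it was -0.89 (adjusted p = 2.79e-03).

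COL16A1 (chromosome 1, 31652263 to 31704319) had 5.61, 5.32 and 6.38 CPM in control and 11.03, 10.32 and 8.30 CPM in knockout libraries and rose 1.71-fold (log2 fold change 0.77, SE 0.16; edgeR adjusted p = 2.76e-03). It was among the 4 tested collagens in which knockout library 2 was not the lowest, with COL13A1, COL15A1 and COL20A1. COL14A1, a regulator of fibril diameter, had 17, 17 and 26 reads in control and 41, 35 and 70 in knockout libraries and rose 2.37-fold (log2 fold change 1.24, SE 0.30; edgeR adjusted p = 5.97e-03; 1.88 once offset for length and GC content).

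COL20A1 went from near absence to a low level. This FACIT gene (chromosome 20, 63293186 to 63334851) had 1, 1 and 0 reads in control libraries and 31, 106 and 125 reads in knockout libraries 1, 2 and 3. All knockout libraries held reads, library 1 fewest. The reads of the knockout group per counted read were 114-fold those of the control group, with a 95% exact interval of 31.3 to 949 that covers counting error only (edgeR adjusted p = 1.32e-04). The level in knockout cells was still only 3.39 ± 1.82 CPM (SD, n = 3), or 0.421 CPM per kilobase.

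COL9A2, a type IX chain of cartilage fibrils, had 6, 2 and 5 reads in control and 12, 12 and 15 in knockout libraries (log2 fold change 1.53, SE 0.44; edgeR adjusted p = 0.0139). The call was lost with DESeq2, with the offset for length and GC content and on leaving out control library 2 (adjusted p = 0.0808, 0.0557 and 0.0572). Its adjusted p ranged from 0.0134 to 0.0808 across the alternatives. Its partner chains COL9A1 and COL9A3 had 0 reads and at most 2 reads in any library.

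Type VIII forms short-chain lattices under endothelium and in kidney mesangium. COL8A1 (chromosome 3, 99638475 to 99799226) had 35.4, 38.5 and 39.3 CPM in control and 32.9, 21.3 and 28.1 CPM in knockout libraries. The groups did not overlap, but knockout library 1 came close to the controls. COL8A1 fell 1.38-fold (log2 fold change -0.46, SE 0.16; edgeR adjusted p = 0.0290), a call lost when offset for length and GC content (-0.13, adjusted p = 0.288) and on leaving out control library 1, 2 or 3 or knockout library 3 (adjusted p = 0.0524, 0.0866, 0.0980 and 0.0627). Its adjusted p ranged from 0.00451 to 0.288 across the alternatives. COL8A2 had 6, 4 and 4 reads in control and 0, 0 and 2 in knockout libraries, too few for the filter. Without it COL8A2 passed as lower (edgeR adjusted p = 0.0484), and the ratio of control to knockout reads was 8.02 with a 95% interval of 1.84 to 72.7.

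The transmembrane collagens did not pass. COL13A1, which sits at cell adhesion sites (chromosome 10, 69801880 to 69964275), had 13.1, 13.6 and 11.7 CPM in control and 14.1, 13.8 and 12.6 CPM in knockout libraries (log2 fold change 0.08, SE 0.13; edgeR adjusted p = 0.609). Its sign turned with library totals only (-0.09) and with the length and GC offset (-0.25). COL17A1, the hemidesmosome collagen (chromosome 10, 104031286 to 104085880), had 2.76, 2.76 and 2.99 CPM in control and 4.91, 2.34 and 2.79 CPM in knockout libraries, where library 1 alone stood out (log2 fold change 0.23, SE 0.27; edgeR adjusted p = 0.483; from -0.14 to 0.43 over the alternatives). COL23A1 had at most 1 read in any library and COL25A1 had 0.

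The 24 members that were not tested had at most 12 reads in any library. Of these, 7 had 0 reads throughout: COL2A1, COL3A1, COL5A3, COL6A6, COL9A1, COL10A1 and COL25A1. Besides those named above, COL19A1, COL21A1, COL22A1 and COL26A1 had at most 3 reads in a library. COL28A1, which was the member with 12, had 9 reads in the control and 23 in the knockout group, a ratio of 2.23 with a 95% interval of 0.994 to 5.47.

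Genes that modify, export, process, cross-link or bind collagen were described from a list of 53 genes, of which 44 were tested. In knockout cells 22 rose and 10 fell, with 12 not passing (72.7% passed; the background is 59.7%), and the median log2 fold change was 0.33. Offset for length and GC content, 24 passed as higher and 8 as lower. With library totals only 17 passed as higher and 11 as lower.

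Enzymes that hydroxylate and glycosylate the chains in the endoplasmic reticulum had 10 of 14 tested members higher and 2 lower, where 28.9% of all tested genes were higher and 30.8% lower. P3H4, a partner of lysyl hydroxylase, rose from 37.7 ± 2.64 to 108 ± 9.04 CPM, and P3H1, a prolyl 3-hydroxylase, from 128 ± 2.31 to 330 ± 24.9 CPM. P4HA2, a catalytic subunit of prolyl 4-hydroxylase, rose from 150 ± 5.20 to 326 ± 14.7 CPM, and P4HB, its other subunit and also a disulphide isomerase, from 942 ± 48.0 to 2106 ± 195 CPM (SD, n = 3 each; edgeR adjusted p from 1.17e-05 for P3H1 to 2.70e-05 for P4HB). P4HA1, the other widely used catalytic subunit, had a log2 fold change of -0.09 (edgeR adjusted p = 0.558). It passed as higher with the offset (0.29, adjusted p = 0.00255) and as lower without knockout library 2 (-0.22, adjusted p = 0.0476). P4HA3, PLOD1, PLOD3, COLGALT1 and PPIB rose as well, PPIB only without the offset (log2 fold change 0.59, and 0.050 with it). P3H3 rose 1.21-fold (adjusted p = 0.0252) but passed as lower with the offset (-0.21, adjusted p = 0.0115). Its call was also lost with library totals only, no filter, the replicate block, and on leaving out control library 2 or 3 or knockout library 1 or 3 (adjusted p = 0.327, 0.0835, 0.0638, 0.101, 0.0844, 0.0801 and 0.0657). P3H2 fell 1.39-fold, and the lysyl hydroxylase gene PLOD2 fell by 0.58 on the log2 scale but lay at 0.038 with the offset.

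Folding and export genes had 5 of 12 tested members higher and 2 lower, and the 58.3% called were near the background of 59.7%. With the offset 8 were higher and 2 lower, where 4434 of all 14398 tested genes were higher and 4103 lower. MIA3, SAR1B and CREB3L1 did not pass (log2 fold change 0.07, 0.36 and -0.34). They passed with the offset, at 0.95, 1.28 and -0.77 (edgeR adjusted p = 7.94e-06, 1.35e-04 and 0.00130). FKBP10, a prolyl isomerase chaperone of procollagen, rose from 218 ± 7.97 to 623 ± 28.2 CPM (SD, n = 3 each), by 1.51 on the log2 scale (SE 0.09; edgeR adjusted p = 5.62e-06). PREB, SAR1A, KLHL12 and SEC24D, which act in COPII transport, rose 1.81-fold, 1.52-fold, 1.35-fold and 1.31-fold, SEC24D not with library totals only (0.22, adjusted p = 0.124). With the offset the log2 fold change of SAR1A was 1.24 in place of 0.61. TMEM38B, an endoplasmic reticulum cation channel, was at -0.18 (adjusted p = 0.359) and passed as higher with the offset (0.44, adjusted p = 0.00799) and as lower without knockout library 2 (-0.36, adjusted p = 0.0212). SERPINH1, the collagen chaperone HSP47, had a log2 fold change of 0.23 (edgeR adjusted p = 0.0966). It passed as lower with the offset (-0.28, adjusted p = 0.00899) and as higher without knockout library 2 (0.32, adjusted p = 0.00529). FKBP14 and SEC23A fell 1.54-fold and 1.53-fold, but lay at 0.091 and -0.050 with the offset.

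Of 6 tested propeptide processing genes 2 rose and 1 fell, so 50.0% were called beside a background of 59.7%. TLL2, a tolloid protease, rose 2.13-fold (edgeR adjusted p = 4.99e-04). BMP1, which removes the C-terminal propeptide, stood just inside the threshold (log2 fold change 0.33, adjusted p = 0.04998) and lost the call in 10 alternatives, with an adjusted p of up to 0.626 (the offset). ADAMTS3, a procollagen N-proteinase, fell 2.61-fold from 16.9 ± 1.55 to 6.46 ± 3.19 CPM (SD, n = 3 each; adjusted p = 2.99e-03), a log2 fold change of -1.38 that became -0.69 with the offset (adjusted p = 0.0359). PCOLCE, an enhancer of the C-terminal cleavage, was at 0.14 (adjusted p = 0.449) and passed as lower with the offset (-0.45, adjusted p = 0.0141).

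Of 6 tested cross-linking genes 4 rose and 1 fell, beside 28.9% higher and 30.8% lower among all tested genes. LOX, the main lysyl oxidase, went from 10.6 ± 1.63 to 48.0 ± 8.42 CPM and LOXL2, which can cross-link type IV collagen, from 333 ± 16.5 to 790 ± 130 CPM (SD, n = 3 each; edgeR adjusted p = 2.18e-05 and 6.32e-05). The log2 fold change of LOX was 2.18, and 2.88 with the offset. LOXL3 and TGM2 rose 1.58-fold and 1.26-fold, with calls lost under library totals only (adjusted p = 0.0514 and 0.271) and without some single libraries (up to adjusted p = 0.0653 and 0.144). LOXL1 fell 1.57-fold. PXDN, which makes the sulfilimine bond of type IV, had a log2 fold change of -0.20 (SE 0.30; adjusted p = 0.595).

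Of 6 tested collagen receptor genes 4 fell, 1 rose and 1 did not pass, beside 28.9% higher and 30.8% lower among all tested genes. MRC2, an uptake receptor gene, rose from 160 ± 9.83 to 342 ± 55.9 CPM (SD, n = 3 each; edgeR adjusted p = 1.25e-04). The integrin genes ITGA11, ITGA1, ITGA2 and ITGB1 fell 3.59-fold, 1.82-fold, 1.72-fold and 1.38-fold, but with the length and GC offset ITGA1, ITGA2 and ITGB1 lay at 0.20, 0.11 and 0.081 on the log2 scale and only ITGA11 remained lower (-1.43, adjusted p = 0.0163). The call of ITGA2 was also lost on leaving out control library 2 or 3 (adjusted p = 0.0671 and 0.0655). The collagen receptor genes DDR1, GP6 and LAIR1 were listed at 0 reads in every library, and DDR2 had 29 reads in the control and 14 in the knockout group. Whether DDR1 reads were lost in mapping or counting was not tested, so its 0 is not a measure of absence.

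**Figure D5:**
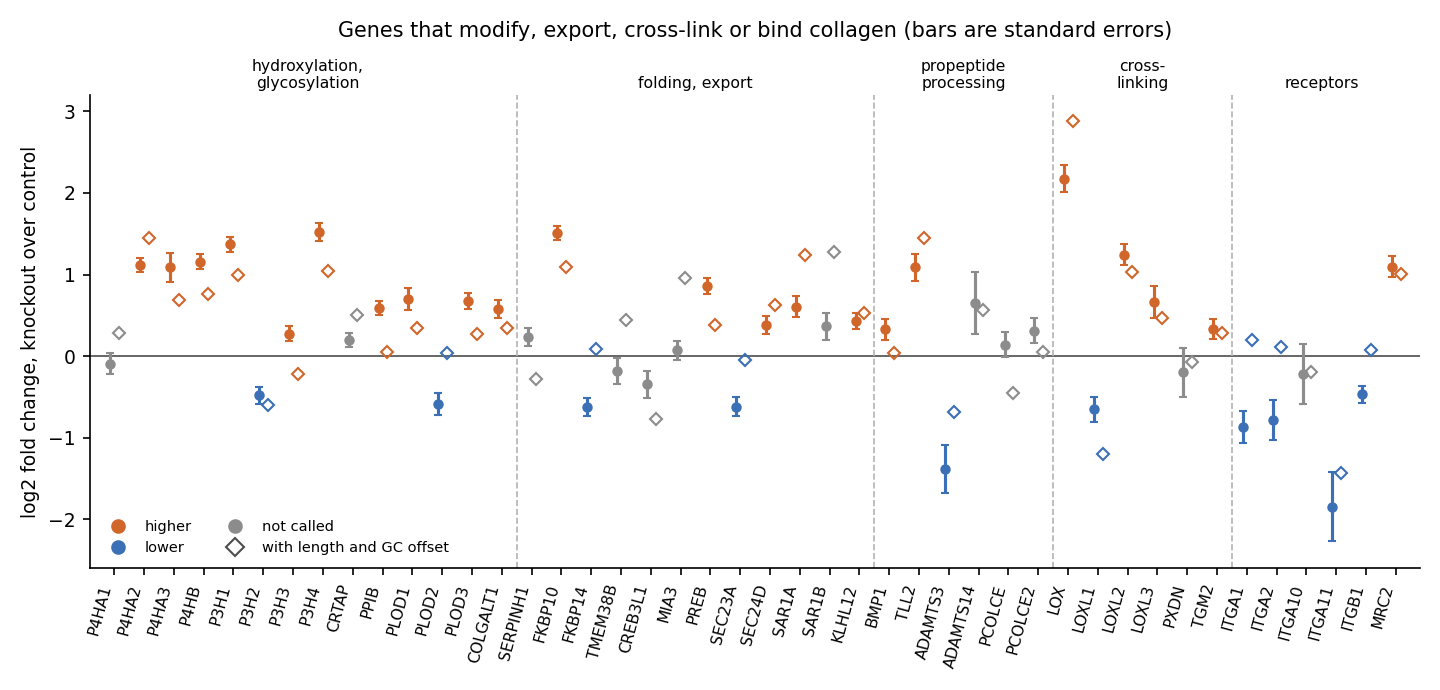
log2 fold change, knockout over control, of the 44 tested collagen pathway genes by role, with standard errors (filled circles, colour by call) and the value with the length and GC offset (open diamonds, no error drawn). Circle and diamond lie on opposite sides of 0 for 3 of the 4 integrin genes that fell, ITGA1, ITGA2 and ITGB1, and on the same side for LOX, LOXL2, FKBP10 and P3H1.

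Collagen transcripts are long and rich in G and C, the features for which the offset adjusts. The 20 tested members had a median canonical transcript length of 6180 bases and a median GC content of 60.2%, against 3174 bases and 48.0% for all tested genes with an annotated transcript. The 10 that rose had a median GC content of 62.9% and ranged from 44.7% (COL14A1) to 67.2%. The 3 that fell, COL5A2, COL8A1 and COL12A1, lay between 46.3% and 48.3%, within that range. With the offset for both features, 11 collagens passed as higher and 3 as lower, COL4A1, COL6A3 and COL27A1 newly among them and COL8A1 and COL9A2 no longer. None of the 20 was called in opposite directions with and without the offset.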

How the data were processed

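Gene-level RNA-seq was compared between 3 control and 3 PHF8 knockout libraries of 786-O cells. Per the labels' series design text, the authors mapped filtered reads to GRCh38 with HISAT2 (version 2.0.4 per the submitters' processing notes) and counted them with HTSeq. The deposited table holds whole, unnormalized read counts for each symbol. The strand setting and annotation release of the counting are not stated in the labels. Columns were tied to samples by title.

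Counts were tested with edgeR 4.0.16 (R 4.3.3, limma 3.58.1): TMM factors, filterByExpr (14398 genes kept), quasi-likelihood test with group as the only term, a prior count of 0.125 for fold changes, and Benjamini-Hochberg adjustment over all tested genes, with a threshold of 0.05. Standard errors (SE) were obtained from the fold change and the F statistic. The pipeline was tested on simulated counts of 14398 genes. It recovered 26.9% of 67 changes of 1.5-fold, 92.5% of 67 of 2-fold and 98.5% of 66 of 4-fold. Of its 155 calls 10 were false. Far fewer genes were changed there than were called in the data. Sums and chain ratios used exact two-sided permutation tests over libraries (SciPy 1.17.1); read ratios of low genes have exact 95% intervals. Libraries of a group differed by more than sampling noise (chi-square per degree of freedom 3.10 to 74.3), so none was a copy of another's counts. This cannot show whether they came from separate cultures. Totals of 21533615 to 29095133 reads set the precision. Coordinates, transcript lengths and GC content are from GENCODE v44 (GRCh38), by symbol; promoter windows are from RefSeq (GRCh38.p14). The chain of each gene was matched by symbol only.

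Alternatives were DESeq2 1.42.0, median-ratio factors, library totals only, no filter, a filter at 1 CPM in every library of either group, replicate number as blocking term, omission of single libraries, the 2-fold criterion of the series, and a per-library offset for transcript length and GC content (lowess span 0.3, for the 92.4% of tested genes with both; group differences that follow either are removed with it). With library totals only the median of all tested genes moved to -0.18 log2. A listed marker gene is not reported here. The members and lists were chosen with earlier results of these data known. All members are named, and in each pathway list the called genes with the smallest p, up to 4 in each direction. Per-library values were to be given for called members of at least 5 CPM, tested type I and IV chains and their partners. Those of further tested members, and further pathway genes, were added after their values were seen.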

Additional observations from a re-analysis of the deposited data

How the results depend on the processing

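Collagens called higher numbered 8 to 12 and lower 2 to 5 over the alternatives without a fold criterion, beside 10 and 3 as reported; the 5 came with no filter, which added COL27A1 and COL8A2 and tests more genes. With the 2-fold criterion added, 6 collagens were higher, 10 pathway genes were higher and 2 lower, and 3362 genes passed in all. With the length and GC offset the sign of 10 pathway genes turned: on the log2 scale P4HA1 lay at 0.29, PLOD2 at 0.038, FKBP14 at 0.091, TMEM38B at 0.44, ITGA1 at 0.20, ITGA2 at 0.11 and ITGB1 at 0.081, and P3H3 at -0.21, SERPINH1 at -0.28 and PCOLCE at -0.45. The offset removes trends along both features by construction. Leaving out single libraries gave 8 to 12 collagens higher and 2 to 4 lower, and a log2 ratio of summed collagen levels of 0.62 to 0.98. Deviations from the group means were hardly correlated between libraries of the same number (0.020, -0.044 and 0.011). With 3 libraries per group and knockout library 2 apart, this does not settle whether the numbers pair them. With the replicate block 11 collagens were higher and 4 lower, 20 and 10 pathway genes, and 8308 genes passed in all. Members with under about 20 reads per library are limited by depth.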

Other observations

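COL20A1 lies 3395 bases beyond the end of ARFGAP1, on the same strand of chromosome 20. ARFGAP1, a regulator of Golgi transport, had 2535, 2497 and 2606 control reads (libraries 1 to 3) and 5035, 5038 and 6304 knockout reads (log2 fold change 1.06; edgeR adjusted p = 4.4e-05). COL20A1 had 31, 106 and 125 reads in the same knockout libraries. CHRNA4, beyond its other end, had 0 reads in every library.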
